A study of Mus musculus with 8 samples.

Results

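The genes described here are 10 surfactant and alveolar type 2 (AT2) cell genes of the lung. Of these, Sftpa1, Sftpb, Sftpc and Sftpd encode surfactant proteins. The lamellar body, lipid and transport genes are Abca3, Lamp3, Napsa, Slc34a2 and Lpcat1, and Etv5 encodes a transcription factor. The 10 were chosen by symbol, for what they are known to do, from the 24584 genes in the tables. All 10 were found, and all 10 were among the 15706 genes with enough reads to be tested. Whole lung RNA was sequenced from 8 male ICR mice, an outbred stock, aged 6 to 8 weeks and labelled as wild type. Every mouse received lipopolysaccharide (LPS) from Escherichia coli by intraperitoneal injection at 5 mg/kg, a model of septic lung injury, and lungs were taken 12 h later. The LPS group (n = 4) received LPS alone, and the LPS + Tan group (n = 4) was also injected intraperitoneally with the citrus flavonoid tangeretin at 50 mg/kg, 30 min before LPS. The comparison asks whether tangeretin altered lung transcripts after LPS. Mice without LPS, or with tangeretin alone, were not analysed here, so every value below belongs to an LPS-treated lung.

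AT2 cells line the alveoli together with the thin AT1 cells, and they make, store, secrete and take back pulmonary surfactant, the film of phospholipid and protein that keeps alveoli from collapsing at the end of expiration. The phospholipid is assembled inside the cell, pumped into lamellar bodies and released with the small hydrophobic proteins SP-B and SP-C, whereas SP-A and SP-D are collectins, secreted lectins that bind microbes and LPS. Inflammation of the lung is known to disturb surfactant, which is why its genes are of interest in LPS injury.

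Between 38895654 and 39931970 reads were counted per mouse. The library of LPS + Tan replicate 4 stood apart by gene length. In it the 873 tested genes shorter than 1000 bases lay a median of 0.226 above their mean over mice on the log2 CPM scale, and the 2844 genes of 7000 bases or more lay at -0.169, whereas in the other 7 libraries these medians were between -0.104 and 0.0569 for short genes and between -0.0374 and 0.0651 for long genes. Sftpc, at 804 bases, is the shortest of the 10 genes and Abca3, at 6578 bases, the longest, so the fold changes, mean levels, shares and ratios of either are also given without this library, a choice made after seeing the data. CPM is the count of a gene relative to the size of its library after TMM adjustment, and it is not divided by gene length.

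The 10 AT2 genes were all detected in whole lung, where a level shows abundance and not the cell of origin. On the authors' FPKM scale, which divides by gene length and so allows genes to be compared, Sftpc was the 4th most abundant of all genes in the LPS group and the 3rd in the LPS + Tan group, at 5546 ± 1362 and 6085 ± 1724 FPKM (SD, n = 4). Without LPS + Tan replicate 4 the LPS + Tan mean of Sftpc was 5242 ± 437 FPKM (SD, n = 3), below that of the LPS group. Sftpa1 followed at 859 ± 116 and 852 ± 81.9 FPKM, then Sftpd at 679 ± 94.4 and 605 ± 136 FPKM, Sftpb at 455 ± 133 and 449 ± 41.8 FPKM, and Slc34a2 at 351 ± 68.5 and 349 ± 38.8 FPKM. These 5 genes all ranked at 148 or above. In the LPS group Sftpb and Slc34a2, next to each other in the order, differed by less than the SD of Sftpb. Napsa (95.5 ± 10.5 and 94.6 ± 11.1 FPKM) and Lamp3 (89.9 ± 22.1 and 87.5 ± 17.3 FPKM) could not be ordered within their spread, nor could Abca3 (57.1 ± 6.73 and 55.5 ± 8.42 FPKM, the latter 59.7 ± 1.69 without that library) and Lpcat1 (50.5 ± 8.35 and 51.6 ± 3.73 FPKM). Etv5 was the lowest, at 15.9 ± 2.04 and 18.3 ± 1.08 FPKM. The ranks among all genes in the LPS and LPS + Tan groups were 623 and 635 for Napsa, 668 and 700 for Lamp3, 1122 and 1165 for Abca3, 1298 and 1273 for Lpcat1, and 3802 and 3479 for Etv5. The 4 surfactant protein genes made up 91.9% ± 0.298 of the summed FPKM of the 10 genes in the LPS group and 92.2% ± 1.05 in the LPS + Tan group (SD, n = 4), or 91.7% ± 0.0989 in the latter without replicate 4 (n = 3).

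The genes lie on 7 chromosomes of GRCm38, with Sftpa1 (chr14:41131782-41136452, plus strand, 6 exons) and Sftpd (chr14:41172214-41185149, minus strand, 8 exons) close together and Sftpc farther along the same chromosome (chr14:70520949-70524081, minus strand, 6 exons). Sftpb lies at chr6:72304610-72314371 with 11 exons, Abca3 at chr17:24351950-24410201 with 33 exons, Lamp3 at chr16:19653378-19706375 with 6 exons and Etv5 at chr16:22381309-22439719 with 13 exons. Napsa lies at chr7:44572380-44586862, Slc34a2 at chr5:53038081-53071664 and Lpcat1 at chr13:73467197-73516422. Non-coding genes on the opposite strand share exon bases with Abca3 (D330041H03Rik, 691 bases) and with Napsa (Gm15396, 502 bases), and the sources used here do not give whether counting used strand. The mean counts of these partners, 52.9 and 11.2 reads, are far below those of Abca3 and Napsa.

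For 3 genes with matches to the motifs searched, the 250 bases before the start are shown. The windows are those of the collectin gene Sftpa1, the hydrophobic protein gene Sftpb and the lamellar body gene Lamp3. They were taken from RefSeq on GRCm38.p6, 5′ to 3′ on the strand of the gene, with capitals marking letters that match the motifs described after them.
Sftpa1, chr14:41131538-41131787, plus strand: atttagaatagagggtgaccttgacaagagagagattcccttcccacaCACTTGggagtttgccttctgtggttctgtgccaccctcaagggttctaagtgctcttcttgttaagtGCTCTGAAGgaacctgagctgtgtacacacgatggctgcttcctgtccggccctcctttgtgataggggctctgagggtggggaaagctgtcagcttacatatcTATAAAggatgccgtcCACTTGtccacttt
Sftpb, chr6:72304360-72304609, plus strand: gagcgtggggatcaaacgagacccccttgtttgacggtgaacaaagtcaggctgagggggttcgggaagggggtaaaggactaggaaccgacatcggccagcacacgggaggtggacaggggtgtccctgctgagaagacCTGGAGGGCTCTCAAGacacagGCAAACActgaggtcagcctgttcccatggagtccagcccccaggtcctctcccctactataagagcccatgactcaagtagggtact
Lamp3, chr16:19706366-19706615, minus strand: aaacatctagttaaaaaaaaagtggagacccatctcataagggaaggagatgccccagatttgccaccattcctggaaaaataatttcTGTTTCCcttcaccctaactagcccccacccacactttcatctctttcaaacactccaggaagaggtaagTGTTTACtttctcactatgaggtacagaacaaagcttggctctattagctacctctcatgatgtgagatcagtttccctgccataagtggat

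RefSeq starts were found for 7 of the 10 genes, Sftpa1, Sftpb, Abca3, Lamp3, Slc34a2, Lpcat1 and Etv5, in 8 windows because Etv5 has 2 starts. Windows for Sftpc, Sftpd and Napsa were not used here. NKX2-1, FOXA and ETS factors are known regulators of the surfactant genes. Letters of the NKX2-1 type, CACTTG, were in the Sftpa1 window at -202 and -14 from the start, against 11.6% of all 32851 windows of this length, with both strands searched. The longer NKX2-1 form GCNCTNNAG was in Sftpa1 at -134 and in Sftpb at -110 and -103, matches that overlap each other on opposite strands, against 14.2% of windows. The FOXA letters TGTTTNC were in Sftpb, Lamp3 and a window of Etv5, against 17.8%. A TATAAA box was in Sftpa1 at -30, against 12.4%, and TTNNGCAA, of the C/EBP type, was in Slc34a2, against 9.56%. The ETS letters CCGGAAG were in 0 of the 8 windows, against 6.91%. The windows of Abca3 and Lpcat1 and the other window of Etv5 held none of these 6 motifs, so the windows shown are not typical of all 8. Such matches describe these letters in these windows and were not tested for binding.

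None of the 10 genes passed the test between the groups. With edgeR's quasi-likelihood test, 0 of the 10 had a Benjamini-Hochberg adjusted p under 0.05, against 0.0% of all genes tested, and 0 had an unadjusted p under 0.05, against 5.12% of all genes (804 of 15706, with 480 genes without LPS + Tan replicate 1, 1626 without LPS + Tan replicate 2 and 1488 without LPS + Tan replicate 4). Both counts for the 10 genes were also 0 without LPS + Tan replicate 4. On the genes that edgeR tested, DESeq2 called 33 at an adjusted p under 0.05 and limma-voom 0, and DESeq2 with its default settings, without that filter, called 35. None of the DESeq2 calls was among the 10 genes. By the rule of an unadjusted p under 0.05 with more than a 2-fold change, 0 of the 10 were called, against 0.649% of all genes. The CPM ranges of the groups overlapped for each of the 10, and 2.73% of all genes had ranges without overlap. The fold changes were small. The median log2 fold change (LPS + Tan minus LPS) was -0.050 for the 10 genes and 0.0070 for all genes tested, and the median size without sign was 0.064 against 0.107. Of the 10 genes 2, Sftpc and Etv5, had a positive fold change, against 51.8% of all genes. That count gives no direction for the genes, since it became 8 without LPS replicate 1, 7 without LPS + Tan replicate 3, 5 without LPS replicate 2, 4 without LPS + Tan replicate 2 and 1 without LPS replicate 4, and 5 on the FPKM values. Leaving out 1 mouse turned the sign of the fold change in 8 of the 10 genes, all but Sftpd and Etv5. No 95% interval reached a 2-fold change in either direction. The intervals of Sftpc and Sftpd held a 1.5-fold change, and the bounds over the 10 genes ran from 0.657-fold for Sftpd to 1.55-fold for Sftpc. In bulk lung, fewer cells of a type and less RNA per cell cannot be told apart.

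**Figure D1:**
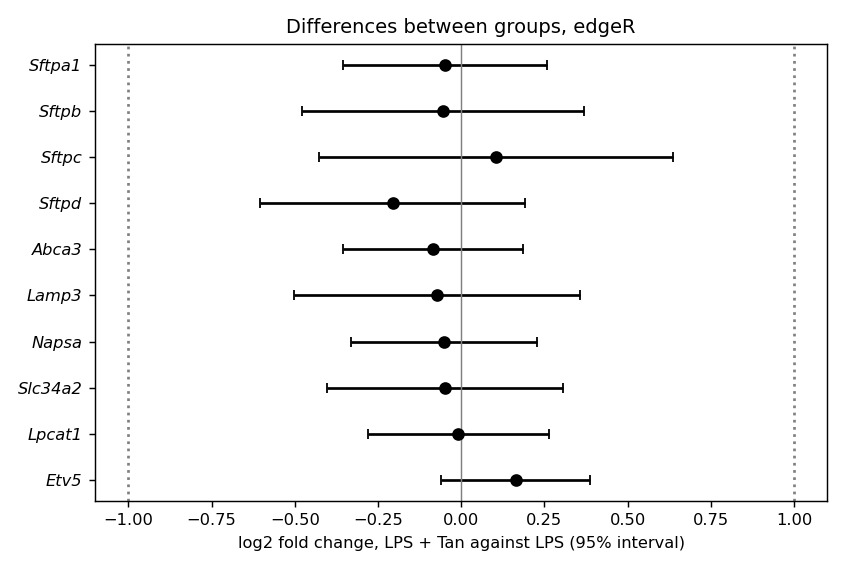
Log2 fold change (LPS + Tan minus LPS, x axis) of each of the 10 genes (y axis) by edgeR, with points for the estimate and bars for the 95% interval. Each bar crosses 0, and the estimates run from -0.21 for Sftpd to 0.16 for Etv5.

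Sftpc encodes SP-C, a very hydrophobic peptide made in the lung by AT2 cells and the gene most used to mark them. Its level was 5819, 4950, 3958 and 3359 CPM in LPS replicates 1 to 4 and 4371, 4302, 3628 and 7135 CPM in LPS + Tan replicates 1 to 4. The highest and the lowest mouse differed 2.12-fold, and the groups overlapped. This was the widest range of the 10 genes, but without LPS + Tan replicate 4 it was 1.73-fold, below the 1.84-fold of Sftpd. The log2 fold change was 0.10 (SE 0.24, 95% interval -0.43 to 0.64, edgeR adjusted p = 0.985). LPS + Tan replicate 4, the library enriched in short genes, held the highest value. Without it the log2 fold change was -0.14 (SE 0.19, edgeR adjusted p = 0.874), and with the length trend removed from each library it was 0.070. Without LPS replicate 4 it was -0.015, so the sign of the Sftpc difference rested on single mice. Sftpc alone took 0.446% ± 0.109 of all reads in the LPS group and 0.489% ± 0.139 in the LPS + Tan group (SD, n = 4). Without LPS + Tan replicate 4 the latter was 0.421% ± 0.0351 (n = 3), so that this difference turned its direction as well.

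Sftpb encodes SP-B, which is needed to form lamellar bodies and the surface film. Its level was 917, 874, 537 and 555 CPM in LPS replicates 1 to 4 and 717, 700, 578 and 779 CPM in LPS + Tan replicates 1 to 4. The LPS mice fell into a high and a low pair, and the LPS + Tan mice all lay between these pairs. The means were 721 ± 203 and 694 ± 83.9 CPM (SD, n = 4), with a log2 fold change of -0.055 (SE 0.19, 95% interval -0.48 to 0.37, edgeR adjusted p = 0.989). Without LPS replicate 1 the log2 fold change of Sftpb was 0.082, of the opposite sign.

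Of the collectin genes, Sftpa1, which encodes SP-A, was at 2834, 2479, 2252 and 2114 CPM in LPS replicates 1 to 4 and at 2259, 2295, 2036 and 2765 CPM in LPS + Tan replicates 1 to 4. It was among the steadiest of the 10, with a 1.39-fold range over all mice and overlapping groups. Its log2 fold change was -0.049 (SE 0.14, 95% interval -0.36 to 0.26, edgeR adjusted p = 0.988). Sftpd, which encodes SP-D, was at 854, 774, 1116 and 921 CPM in LPS replicates 1 to 4 and at 687, 1047, 607 and 834 CPM in LPS + Tan replicates 1 to 4. Its highest mouse was LPS replicate 3 and its lowest LPS + Tan replicate 3, and the second highest, LPS + Tan replicate 2, lay inside the LPS range. The log2 fold change of -0.21 (SE 0.18, 95% interval -0.61 to 0.19, edgeR adjusted p = 0.950) was the lowest of the 10. Without LPS + Tan replicate 2 the log2 fold change was -0.37, with an unadjusted edgeR p of 0.0438 and an adjusted p of 0.473. It was -0.097 without LPS replicate 3 and -0.099 without LPS + Tan replicate 3, with unadjusted edgeR p values of 0.609 and 0.588.

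**Figure D2:**
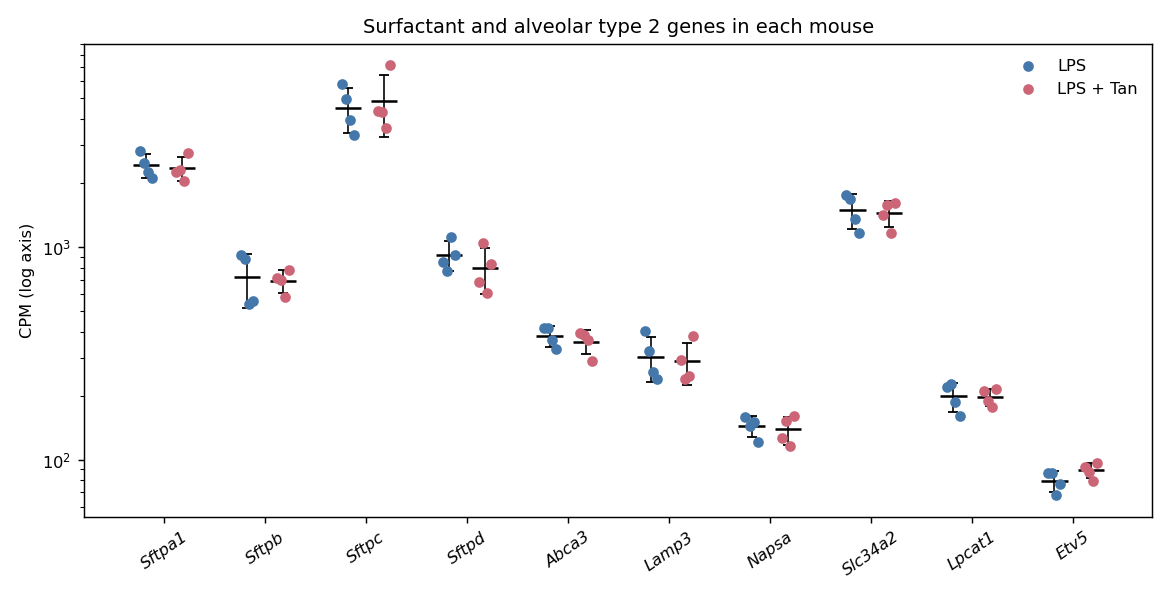
CPM (y axis, TMM-scaled counts on a log axis) of each of the 10 genes (x axis). Points are mice, and bars give the group mean with its SD (LPS, n = 4, and LPS + Tan, n = 4). The groups overlap for every gene, and the highest Sftpc point, at 7135 CPM, is LPS + Tan replicate 4.

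Lamellar body genes gave the same picture of overlap. Abca3, the transporter that moves phospholipid into lamellar bodies, was at 416, 414, 364 and 330 CPM in LPS replicates 1 to 4 and at 393, 386, 365 and 292 CPM in LPS + Tan replicates 1 to 4. Its lowest mouse, LPS + Tan replicate 4, was the one highest in Sftpc. Between the groups Abca3 had a log2 fold change of -0.086 (SE 0.12, 95% interval -0.36 to 0.18, edgeR adjusted p = 0.978), and without that library it was 0.0014. Lamp3, a protein of the lamellar body membrane, was at 401, 322, 257 and 239 CPM in LPS replicates 1 to 4 and at 293, 238, 247 and 381 CPM in LPS + Tan replicates 1 to 4. Here 1 mouse of each group, LPS replicate 1 and LPS + Tan replicate 4, stood high, and the log2 fold change was -0.073 (SE 0.19, 95% interval -0.50 to 0.36, edgeR adjusted p = 0.987). Napsa, the aspartic protease napsin A that takes part in processing the SP-B precursor, was at 159, 144, 150 and 121 CPM in LPS replicates 1 to 4 and at 126, 151, 116 and 160 CPM in LPS + Tan replicates 1 to 4, again with overlap. Napsa had a log2 fold change of -0.051 (SE 0.13, 95% interval -0.33 to 0.23).

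Slc34a2 encodes the sodium-dependent phosphate transporter of the AT2 cell surface, and Lpcat1 an acyltransferase that makes the saturated phosphatidylcholine of surfactant. Slc34a2 was at 1753, 1682, 1348 and 1166 CPM in LPS replicates 1 to 4 and at 1409, 1580, 1166 and 1602 CPM in LPS + Tan replicates 1 to 4. The lowest mouse of each group had the same rounded level, and the log2 fold change was -0.047 (SE 0.16, 95% interval -0.40 to 0.31). Lpcat1 had the closest group means of the 10, at 199 ± 30.9 and 197 ± 17.8 CPM (SD, n = 4). Its log2 fold change of -0.0091 (SE 0.12, 95% interval -0.28 to 0.26) bounds a change to between 0.823-fold and 1.20-fold.

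Etv5, an ETS transcription factor that acts below FGF signalling and helps keep AT2 identity, had the lowest p of the 10 with all 8 mice. Its level was 86.6, 86.3, 67.9 and 76.8 CPM in LPS replicates 1 to 4 and 92.6, 87.3, 79.6 and 96.3 CPM in LPS + Tan replicates 1 to 4. Of the LPS + Tan mice 3 were above every LPS mouse, and replicate 3 lay inside the LPS range. The means were 79.4 ± 8.92 and 88.9 ± 7.26 CPM (SD, n = 4), a difference larger than the SD of either group, which held for no other of the 10 genes. The log2 fold change was 0.16 (SE 0.10, 95% interval -0.061 to 0.39), with an edgeR adjusted p of 0.928 and an exact two-sided permutation p of 0.143 on CPM, where 0.0286 is the smallest p that 4 against 4 mice allow. Without LPS replicate 3 the log2 fold change was 0.095, and without LPS + Tan replicate 2 Sftpd, not Etv5, had the lowest p.

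Ratios between genes of the same library remove what the genes share. Over 7 ratios of counts, the smallest exact permutation p (two-sided, on log2 ratios) was 0.371, for Sftpd over Sftpc, which was 0.215 ± 0.0732 in the LPS group and 0.171 ± 0.0529 in the LPS + Tan group (SD, n = 4), with a Benjamini-Hochberg adjusted p of 0.933 over the 7. Sftpb over Sftpc was 0.159 ± 0.0173 and 0.149 ± 0.0265, and Sftpa1 over Sftpc was 0.546 ± 0.0657 and 0.50 ± 0.0771. In each of these 3 the groups overlapped. Without LPS + Tan replicate 4 the LPS + Tan means were 0.189 ± 0.0471 for Sftpd over Sftpc, 0.162 ± 0.00239 for Sftpb over Sftpc and 0.537 ± 0.0225 for Sftpa1 over Sftpc (SD, n = 3). The Sftpb ratio was then above the LPS mean, so its lower mean rested on that library, where it was 0.109. Abca3 over Sftpc was 0.0863 ± 0.0115 in the LPS group and 0.0803 ± 0.0268 in the LPS + Tan group, and without that library the latter was 0.0935 ± 0.00619, turning the direction. Abca3 over Lamp3 was 1.28 ± 0.171 and 1.30 ± 0.376, the latter 1.48 ± 0.140 without it, and Etv5 over Sftpc was 0.0181 ± 0.00339 and 0.0192 ± 0.00388, the latter 0.0211 ± 0.000822 without it.

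For 9 of the 10 genes the groups' means differed by less than the SD of each group, and most of the genes shared their variation between mice. The within-group SD on the log2 CPM scale had a median of 0.222 over the 10 genes, against 0.151 over the 2813 genes with at least the mean CPM of Etv5, and ran from 0.145 for Etv5 to 0.386 for Sftpc. Sftpc lay farthest from its mean in LPS + Tan replicate 4, at 0.646, and its SD was not taken without that library. The mean of the 10 genes, as a deviation from its overall mean on the log2 scale, was 0.235, 0.123, -0.081 and -0.218 in LPS replicates 1 to 4 and -0.021, 0.023, -0.235 and 0.175 in LPS + Tan replicates 1 to 4. Each group thus held mice high and low in AT2 transcripts. In the LPS + Tan group the high mouse was replicate 4, the library enriched in short genes, and the next was replicate 2 at 0.023. As a share of all reads, the 10 genes took from 0.897% to 1.32% in the LPS group and from 0.948% to 1.38% in the LPS + Tan group. The 1.38% was LPS + Tan replicate 4, and the other 3 mice reached at most 1.102%.

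**Figure D3:**
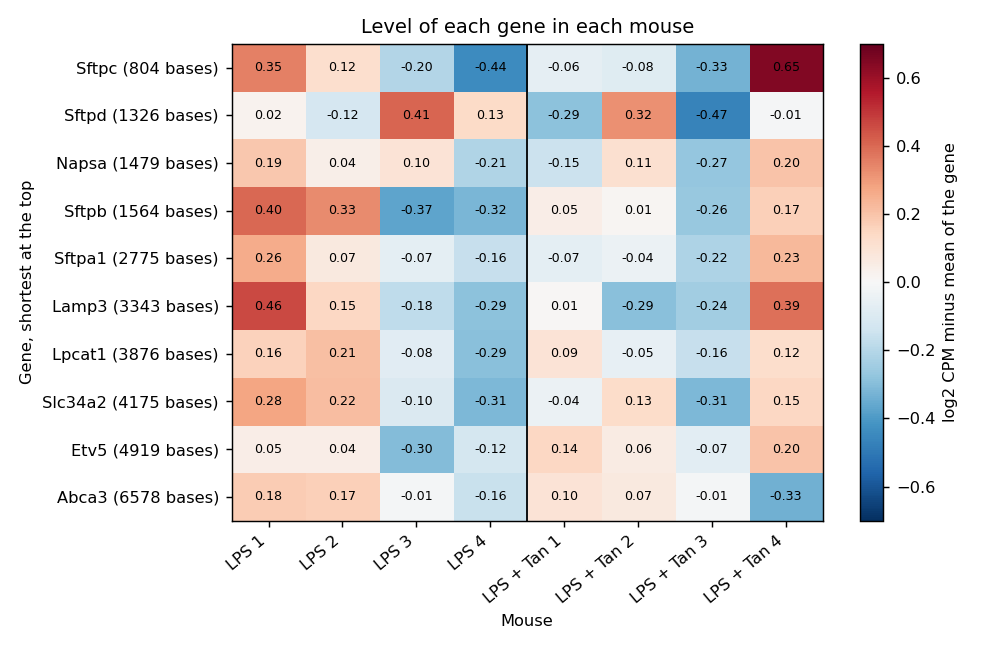
Deviation of log2 CPM from the mean of each gene over the 8 mice (colour scale), for the 10 genes (rows) and the mice of each group (columns). LPS replicate 1 was above the mean in most genes and LPS replicate 4 and LPS + Tan replicate 3 below it, with Sftpd departing from the others.

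Over the 8 mice, 37 of the 45 pairs of genes had a positive Pearson correlation of log2 CPM, with a median r of 0.62 and a range of -0.41 to 0.94. The genes of a library share their scaling and the RNA of 1 lung, so these correlations describe levels within whole lung. An exact permutation test gave 7 pairs with a p under 0.05 after Benjamini-Hochberg adjustment over the 45. The closest pair was Sftpa1 with Sftpc, with r = 0.943 (exact permutation p = 0.000595, adjusted p = 0.0268) and Spearman rho = 0.929 (exact permutation p = 0.00223). Without the 2 mice farthest from the Sftpa1 median, r was 0.916. Sftpb followed Slc34a2 (r = 0.901, exact permutation p = 0.00407, adjusted p = 0.0366, rho = 0.881, r = 0.945 without the 2 farthest mice). Lamp3 followed Sftpa1 (r = 0.933, exact permutation p = 0.00171, adjusted p = 0.0283, rho = 0.738), and this fell to r = 0.727 without the 2 farthest mice. Taking deviations from each group's mean left a median r of 0.746 over the 45 pairs, so the shared variation lay within the groups.

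Over all 8 mice Sftpd did not follow the others. Its correlations with the other 9 genes had a median r of -0.11, from -0.41 with Etv5 to 0.57 with Napsa, and 3 of the 9 were positive. The sign differed by group: within the 4 LPS mice 0 of the 9 were positive, and within the 4 LPS + Tan mice 7 of the 9 were. With 4 mice a group this is a description, and the difference between the groups was not tested. With the other collectin gene Sftpa1, nearby on chromosome 14, r was 0.146 (exact permutation p = 0.724, rho = 0.0952). LPS replicate 3, the mouse highest in Sftpd, was the lowest of all in Sftpb and Etv5. The 36 pairs without Sftpd had a median r of 0.74, with 34 positive. The Sftpd median was -0.178 without LPS + Tan replicate 4 and -0.114 with the length trend removed.

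Abca3 also had low correlations, with a median r of 0.014 over its 9 pairs, but these turned on 1 library. Without LPS + Tan replicate 4 the median was 0.789 over 7 mice, and with the length trend removed from all 8 libraries it was 0.332. The median over all 45 pairs was 0.744 without that library and 0.646 with the trend removed.

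**Figure D4:**
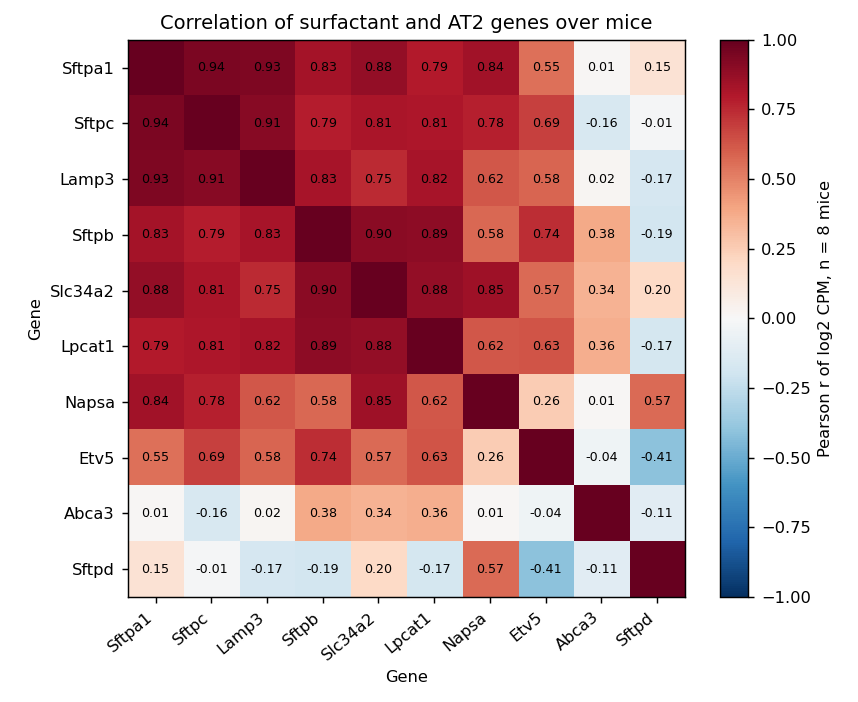
Pearson correlation of log2 CPM over the 8 mice (colour scale) for each pair of the 10 genes (rows and columns). The Sftpd row is near 0 or below in most cells, and the Abca3 row is low as well, whereas most other pairs are above 0.5.

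**Figure D5:**
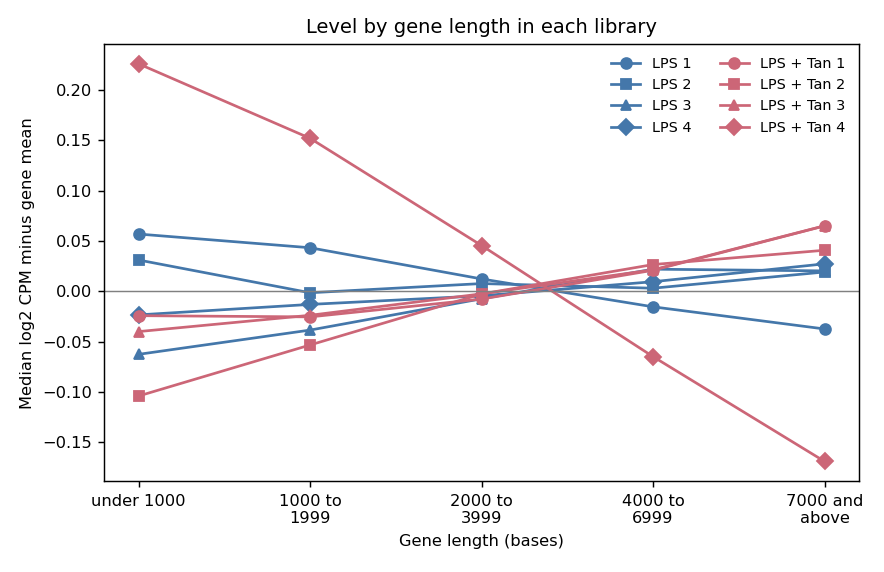
Median deviation of log2 CPM from the mean of each gene over mice (y axis) by class of gene length in bases (x axis), 1 line per library, over the tested genes. LPS + Tan replicate 4 falls from 0.226 in genes under 1000 bases to -0.169 in genes of 7000 bases or more, and the other 7 lines stay between -0.104 and 0.0651.

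Genes around the surfactant pathway were examined in lists made for what their members do, and in each list 0 genes had an edgeR adjusted p under 0.05. At an unadjusted p under 0.05, where 5.12% of all genes were called, a count of 0 in lists this short is near the background. Among AT2 transcription factors, 0 of 11 tested genes had an unadjusted p under 0.05, and their median log2 fold change was 0.051. Hif1a, the oxygen-sensing factor, was at 525 ± 150 CPM in the LPS group and 351 ± 191 CPM in the LPS + Tan group (log2 fold change -0.58, SE 0.32). Foxp2 was at 4.68 and 5.92 CPM on average (log2 fold change 0.34, SE 0.18), and Stat3, the signal transducer of interleukin-6, at 445 ± 62.0 and 378 ± 81.5 CPM.

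Of 23 genes of surfactant lipid synthesis, 15 had a negative fold change and 8 a positive one, against 48.2% negative among all genes, with a median of -0.13 on the log2 scale, and 1 was lower at an unadjusted p under 0.05, against 2.25% of all genes. That gene was Acsl4, which activates long-chain polyunsaturated fatty acids, at 238 ± 31.8 CPM in the LPS group and 194 ± 18.7 CPM in the LPS + Tan group (log2 fold change -0.29, SE 0.11, edgeR adjusted p = 0.924). The fatty acid elongase Elovl6 was at 8.77 ± 2.91 and 6.31 ± 0.788 CPM, and Insig1, a brake on sterol synthesis, at 48.0 ± 8.11 and 39.9 ± 6.95 CPM. None of these 3 passed adjustment over all genes. In the list of surfactant processing, packaging, secretion and clearance, 0 of 24 genes had an unadjusted p under 0.05 and the median was -0.034. Its lowest p values belonged to the vesicle fusion gene Vamp2 (log2 fold change -0.18), the lysosomal phospholipase gene Pla2g15 (0.34) and the cytokine gene Csf2 (-0.25). The product of Csf2, GM-CSF, acts in the clearance of surfactant by alveolar macrophages.

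Of 24 other AT2 markers tested, 0 had an unadjusted p under 0.05, against 5.12% of all genes, with a median log2 fold change of -0.067, and the mean of that list followed the mean of the 10 genes over the 8 mice with r = 0.968 and rho = 0.976. The means of the remaining AT2 lists followed it less closely or not at all. Lipid synthesis had r = 0.612 (rho = 0.5), AT2 transcription factors 0.410 (0.476), FGF signalling 0.383 (0.524), and injury and the transitional state 0.138 (0.048). Processing, packaging, secretion and clearance had r = -0.305 (rho = 0.024). Its mean deviation in log2 CPM was -0.172 in LPS + Tan replicate 4, the library enriched in short genes. In the other mice it was between -0.027 and 0.082. The list of other AT2 markers holds Lyz1, Lyz2 and Cd74, which macrophages express as well. The mucin gene Muc1 was at 193 ± 20.2 and 165 ± 27.2 CPM, Tspan8 at 52.4 ± 10.1 and 69.1 ± 26.5 CPM, and Ank3 at 37.2 ± 6.93 and 32.8 ± 3.09 CPM.

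In the list of FGF signalling towards Etv5, 1 of 11 genes was higher and 1 lower at an unadjusted p under 0.05, against 2.87% higher and 2.25% lower among all genes. Both are Sprouty genes, inhibitors that FGF signalling itself induces. Spry1 was at 47.1 ± 6.08 CPM in the LPS group and 59.2 ± 3.42 CPM in the LPS + Tan group, with groups that did not overlap (log2 fold change 0.33, SE 0.10, edgeR adjusted p = 0.924). Spry4 was at 183 ± 15.7 and 116 ± 42.9 CPM, in the opposite direction (log2 fold change -0.65, SE 0.21, edgeR adjusted p = 0.924). Il17rd, another inhibitor of the pathway, was at 32.2 ± 4.63 and 39.7 ± 6.28 CPM. The median of the list was 0.060.

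In the list of AT2 genes of injury and of the transitional state towards AT1, 1 of 16 genes was higher and 1 lower at an unadjusted p under 0.05, against 2.87% and 2.25% of all genes. Tnip3, which restrains NF-kappaB signalling, was at 2.43 ± 0.375 and 3.71 ± 0.431 CPM without overlap (log2 fold change 0.61, edgeR adjusted p = 0.922). Saa3, an acute-phase protein gene, was at 4253 ± 474 and 3263 ± 620 CPM (log2 fold change -0.38, edgeR adjusted p = 0.924). Lrg1 was at 154 ± 25.4 and 126 ± 16.7 CPM. The median of the list was -0.14.

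Markers of the other cells of the lung were measured beside the AT2 genes, and 0 of the listed markers in the tables were at 0. The 16 AT1 markers had 0 genes at an unadjusted p under 0.05 and summed to 5867 to 6176 CPM in the LPS group and 5750 to 6655 CPM in the LPS + Tan group. Alveolar macrophage markers, the cells that clear surfactant, summed to 1308 to 2392 CPM and 1288 to 2463 CPM, with 0 of 12 genes at an unadjusted p under 0.05. The mean of the macrophage markers followed the mean of the 10 AT2 genes over the 8 mice (r = 0.915, rho = 0.929). Neutrophil markers, 0 of 12, summed to 4689 to 6513 CPM and 4466 to 6257 CPM and ran the other way from the AT2 genes over mice (r = -0.638). The part of cell numbers in the variation of the AT2 genes was not tested.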

How the data were processed

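RNA from lung of 8 mice was sequenced. The authors deposited raw counts per gene and, separately, FPKM values (fragments per kilobase of transcript and library size) for the same samples. The submitters' processing notes name GRCm38/mm10. No source used here names the aligner, counter or annotation. The labels and the published methods name different RNA extraction and library kits. A total of 0 columns of sample values lacked a sample.

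Groups were taken from the labels. Genes were filtered by edgeR's default rule (filterByExpr), and counts were scaled by TMM and tested with edgeR 4.0.16 (quasi-likelihood, R 4.3.3) on all 8 samples, LPS + Tan against LPS, with Benjamini-Hochberg adjustment over 15706 genes. DESeq2 1.42.0 and limma 3.58.1 (voom, and log2 of FPKM plus 1 or 0.1) were alternatives (DESeq2 also on edgeR's filtered genes, added after seeing the data), with other scalings, other filters (none, or a CPM of at least 1 in 4 samples), a replicate block, each sample left out in turn and, chosen after seeing the data, a loess trend on gene length removed. Log2 CPM used a prior count of 2. Single values and correlations were tested by exact permutation, two-sided, in Python 3.11.15, with ranks from scipy 1.17.1. The scripts were tested on simulated data. Gene lengths were derived from the ratio of the deposited counts to FPKM, positions from GENCODE M21 (GRCm38).

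The genes and lists were chosen with earlier results of these data known. The genes named were the 10 AT2 genes, the 3 with the lowest p in each list of AT2 function, the most abundant gene and the one with the lowest p in each list of other cell types, the 5 other genes that followed the mean of the 10 most closely, and each gene's closest partner among the 10. Of the listed genes, Pga5 and Ctgf were not found under these symbols, and Etv4, Dlk1 and Areg fell below the filter. Differences between libraries exceeded counting noise 7.82 to 22.4 times in every pair of one group, so no library was counted as a repeat. Replicates are separate mice.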

Additional observations from a re-analysis of the deposited data

Results flagged for a closer look

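Within a group of 4 mice, a mouse was marked as distant when its gap to the nearest other mouse took a share of the group's range above Dixon's 95% critical value for 4 samples. Of 106 groups examined, 8 were marked, where chance would mark about 1 in 20, or 5.3. Among ratios of counts, LPS + Tan replicate 2 was highest in Sftpd over Sftpa1 (0.953 of the range), at 0.456 against 0.298 to 0.304 in the other 3 mice. LPS + Tan replicate 4, the library enriched in short genes, was lowest in 3 ratios to Sftpc, with Sftpb at 0.109 (0.929 of the range), Abca3 at 0.0409 (0.873) and Etv5 at 0.0135 (0.84). Of listed genes, Muc1 was lowest in LPS replicate 4 (0.903 of the range) and highest in LPS + Tan replicate 2 (0.84). The AT1 marker Akap5 (0.884) and the neutrophil collagenase gene Mmp8 (0.919) were lowest in LPS replicate 3. The cause was not tested for any of these.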

How the results depend on the processing

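Over 21 alternatives for each of the 10 AT2 genes, 0 of 210 values reached an adjusted p under 0.05, and 28 had the opposite sign to the edgeR result. Sftpd (-0.37 to -0.097) and Etv5 (0.095 to 0.21) kept their sign throughout. At an adjusted p under 0.05, edgeR called 0 of all genes. DESeq2 with its default settings called 35, where 24558 genes had a p and 15507 an adjusted p. It called 33 on the genes edgeR tested, an alternative chosen after seeing the data. On log2(FPKM + 1) and log2(FPKM + 0.1), 5 of the 10 genes were higher with each pseudocount in place of 2, with Sftpb at 0.022 on both, Slc34a2 at 0.0025 and 0.0026, and Lpcat1 at 0.041 and 0.042. Lpcat1 was 0.030 with total counts as the scale, with or without the 10 genes in it, and 0.00070 with limma-voom. Part of these sign changes follows a shift of all genes, whose median log2 fold change was 0.0070 with edgeR, 0.049 with total counts, and 0.028 and 0.041 on the FPKM scales. Relative to that median Sftpb and Slc34a2 stayed below it on both FPKM scales and Lpcat1 stayed below it with total counts, and Lpcat1 on the FPKM scales lay above it. Leaving out 1 mouse in turn gave 0 to 1 of the 10 genes at an unadjusted p under 0.05 (the 1 was Sftpd without LPS + Tan replicate 2), 1 to 8 genes higher, 480 to 1626 of all genes at an unadjusted p under 0.05 against 804 (480 without LPS + Tan replicate 1, 1626 without LPS + Tan replicate 2 and 1488 without LPS + Tan replicate 4), and 0 to 1 at an adjusted p. The log2 fold change then ran from -0.14 to 0.036 for Sftpa1, -0.17 to 0.082 for Sftpb, -0.14 to 0.25 for Sftpc, -0.15 to 0.0014 for Abca3, -0.23 to 0.087 for Lamp3, -0.13 to 0.023 for Napsa, -0.15 to 0.041 for Slc34a2 and -0.098 to 0.058 for Lpcat1. With no filter 1200 genes had an unadjusted p under 0.05. The removal of the length trend, chosen after seeing the data, gave 898.

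Same-numbered mice share only a number: their deviations from the group means correlated at -0.148 to 0.123 over 4 pairs, 1 of them above 0.1. A fit with the replicate number as a block gave 0 of the 10 genes and 826 of all genes at an unadjusted p under 0.05, with 2 of the 10 higher and 0 of all genes at an adjusted p under 0.05. With 4 mice a group, the 95% intervals of Sftpc and Sftpd still hold a 1.5-fold change.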

Other observations

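Among all genes outside the 10, the mean log2 CPM of the 10 AT2 genes was followed most closely over the 8 mice by Vps4a (Pearson r = 0.986, Spearman rho = 1.0), Acaa1a (r = 0.965), Tmem135 (r = 0.951), Romo1 (r = 0.944) and Anp32b (r = 0.942). Vps4a is an ATPase of endosomal sorting, Acaa1a a thiolase of peroxisomal fatty acid oxidation and Romo1 a mitochondrial membrane protein. These are the highest of 15696 correlations, of which 22 (0.14%) were above 0.9 and the median was -0.0040. They are a description of 8 mice, and the genes of a library share their scaling. Vps4a ranged from 55.6 to 64.0 CPM, far less than Sftpc. Its log2 fold change was -0.023 (SE 0.074).

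Airway and stromal markers were measured beside the AT2 genes. Of 13 club and ciliated markers, 1 was lower at an unadjusted p under 0.05, against 2.25% of all genes, the ciliated cell gene Ccdc153 (20.3 ± 2.75 and 15.6 ± 2.87 CPM, log2 fold change -0.38, edgeR adjusted p = 0.924). The club cell secretory protein gene Scgb1a1 was at 15573 ± 2633 and 13853 ± 2485 CPM (SD, n = 4) and, like the AT2 genes, varied between mice of a group (r = 0.903 with their mean), but the mean of the 13 markers followed the AT2 genes less closely (r = 0.430, rho = 0.738). Of 8 general epithelial markers, 0 had an unadjusted p under 0.05, with Cdh1 at 232 ± 23.7 and 210 ± 21.7 CPM and Elf3 at 32.2 ± 1.76 and 27.9 ± 6.73 CPM.

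Of 10 endothelial markers, 2 were higher at an unadjusted p under 0.05, against 2.87% of all genes, Kdr, the VEGF receptor gene (259 ± 37.4 and 334 ± 65.3 CPM, log2 fold change 0.37, edgeR adjusted p = 0.924), and Tek, and Cdh5 was at 1324 ± 215 and 1193 ± 164 CPM. Fibroblast markers had 0 of 8 at an unadjusted p under 0.05, with Pdgfra at 1114 ± 178 and 977 ± 244 CPM and Inmt at 334 ± 103 and 514 ± 184 CPM. The 6 red cell genes all had a negative fold change, against 48.2% of all genes, with a median of -0.51 on the log2 scale and 0 at an unadjusted p under 0.05, and Hbb-bs was at 1587 ± 545 and 1087 ± 183 CPM. Their mean deviation in log2 CPM was -0.699 in LPS replicate 2 and -0.905 in LPS + Tan replicate 1, against 0.393 to 0.693 in the other LPS mice and -0.276 to 0.205 in the other LPS + Tan mice. The AT1 genes Clic5 (1046 ± 128 and 1088 ± 141 CPM) and Akap5 (264 ± 39.1 and 308 ± 54.0 CPM), the alveolar macrophage genes Chil3 (1378 ± 489 and 1394 ± 409 CPM) and Pparg (8.42 ± 2.50 and 9.89 ± 1.04 CPM) and the neutrophil genes S100a9 (2136 ± 340 and 2164 ± 403 CPM) and Mmp8 (529 ± 98.5 and 455 ± 71.1 CPM) all had overlapping groups.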
